A study of Homo sapiens with 2 samples.

Results

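The clustered protocadherin genes lie on the long arm of human chromosome 5 in 3 neighbouring arrays called alpha, beta and gamma. Nascent strand intervals were taken as members when their midpoint fell between 140.16 and 140.90 Mb of chromosome 5 in the genome build hg19, which gave 34 of the 161869 named intervals of the series and 34 of the 7225 on chromosome 5. The rounded limits were 140.16 to 140.40 Mb for alpha, 140.43 to 140.63 Mb for beta and 140.71 to 140.90 Mb for gamma. Of the 34 intervals, 5 lay in alpha, 12 in beta, 15 in gamma, 2 between beta and gamma and 0 between alpha and beta. These limits were not checked against a gene annotation of hg19, so no interval is assigned to a single exon. DNA came from wild-type U2OS, a human osteosarcoma cell line, sampled at 2 hours of S phase, after thymidine had been given in 2 rounds to arrest cells at the G1/S boundary and then removed. Both libraries belong to this 1 group and were deposited as 1 intersected set, and no control group was analysed here. Whether the libraries came from separate cultures is not said in the labels. No RNA was measured, so the cell type was not checked against marker genes.

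Nascent strand sequencing enriches short new DNA strands that resist lambda exonuclease because they begin with RNA, and peaks of such DNA mark places where replication starts. Clustered protocadherins are cell adhesion proteins that give neurons their surface identity. In the alpha and gamma arrays many alternative first exons, each with its own promoter, are joined to shared last exons that encode a common cytoplasmic part, whereas each beta gene consists of a single coding exon. Single neurons express only a few of these genes, chosen by promoter, with the help of the looping factor CTCF and distant enhancers. Late replication is generally found in gene-poor or silent chromatin, and early replication in active chromatin.

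Most promoters of the family carry short conserved elements around the letters CGCT. Promoter sequences of the RefSeq table, build GRCh38.p14, were found for 47 of 53 listed family members (13 of 15 alpha, 14 of 16 beta and 20 of 22 gamma genes). Each covers 300 bases, from 250 before to 50 after the gene's start. Because that build differs from the one of the intervals, the promoters were described by sequence alone and not placed on the intervals. For each array, the run of 8 letters held by most of its promoters before the gene's start is shown in capitals within 30 bases of the first 3 genes in number order that hold it, 5′ to 3′ on the plus strand, to show what the copies of 1 array share.
PCDHA1: ttggccacatgATGTCGCTgtacaccacaa
PCDHA2: ttagccacatgATGTCGCTgtccaccatag
PCDHA4: ggagccacatgATGTCGCTctttaccacaa
PCDHB2: aagagacgcggGGTGGCGCtgcagccttag
PCDHB3: agcgaacgcatGGTGGCGCtgttgactaag
PCDHB4: tcaagacgcagGGTGGCGCtgcaggctaag
PCDHGA1: ggactgtgggcGCCGCTGTtcactaatctg
PCDHGA7: ggactcacagcGCCGCTGTtcaccaaccag
PCDHGA8: ggactgtaagcGCCGCTGTtcacctactgg

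Counted on both strands of the 300 bases, ATGTCGCT stood in 9 of 13 alpha promoters and in 0.245% of the 27305 promoters of the table. GGTGGCGC stood in 13 of 14 beta promoters and in 2.27% of all, and GCCGCTGT in 11 of 20 gamma promoters and in 1.60% of all. These runs were picked from the same promoters, so their shares are a description. The letters CGCT, which all 9 stretches shown contain, stood on either strand of 12 of 13 alpha, 14 of 14 beta and 20 of 20 gamma promoters, and in 69.4% of all promoters. The family promoters were poorer in G and C than most. Their median GC content was 37.3% in alpha, 40.8% in beta and 42.0% in gamma, against 58.3% over the table. Alpha ranged from 33.7% to 66.0%, beta from 33.3% to 46.3% and gamma from 32.3% to 60.7%. The median number of CG pairs was 7 in alpha, 7.5 in beta and 7 in gamma, against 14 over the table. A run pattern known to form G-quadruplexes (4 runs of at least GGG with 1 to 7 bases between them, either strand) matched 0 of the 47 promoters and 24.1% of all.

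The timing lists and the list of peak pieces held the same places in the region. The 34 intervals carried 34 consecutive numbers, and each stood on 1 line of its list. The peak list held 36 pieces there, from 35 peaks of replicate 1, and 0 pieces lay outside a named interval. Of the 34 intervals, 33 overlapped 1 replicate 1 peak and 1 overlapped more. Fold enrichment and −log10 q are the authors' values for whole peaks of replicate 1, so they describe neither the piece nor replicate 2. The number of reads behind a peak is unknown. Replicate 1 peaks are numbered along the chromosome, and the 35 listed ones span 56 numbers, so 21 peaks called in replicate 1 were not in the shared list if numbering is consecutive. The listed share was 62.5% in the region (exact 95% binomial interval 48.5% to 75.1%), 75.3% in the 1 Mb upstream (67.6% to 82.0%), 68.4% in the 1 Mb downstream (61.0% to 75.1%) and 67.9% on chromosome 5. The interval of the region overlapped both others.

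Intervals were thinner on the ground across the protocadherin arrays than in the 1 Mb on either side. The arrays held 34 intervals in 0.74 Mb, or 45.9 per Mb (exact 95% Poisson interval 31.8 to 64.2). The 1 Mb upstream held 110 per Mb (90.4 to 133) and the 1 Mb downstream 120 per Mb (99.5 to 143), so the region was 2.39-fold and 2.61-fold less dense. Neither flank's interval overlapped that of the region. These intervals cover counting error only and treat neighbouring intervals as independent, and no test was made because the files hold 1 set without replicate values. In the nearer 0.5 Mb the upstream density was 64.0 per Mb, close to the region's, and the downstream density was 174 per Mb. Intervals covered 2.57% of the bases of the region, against 9.49% upstream and 10.2% downstream.

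**Figure D1:**
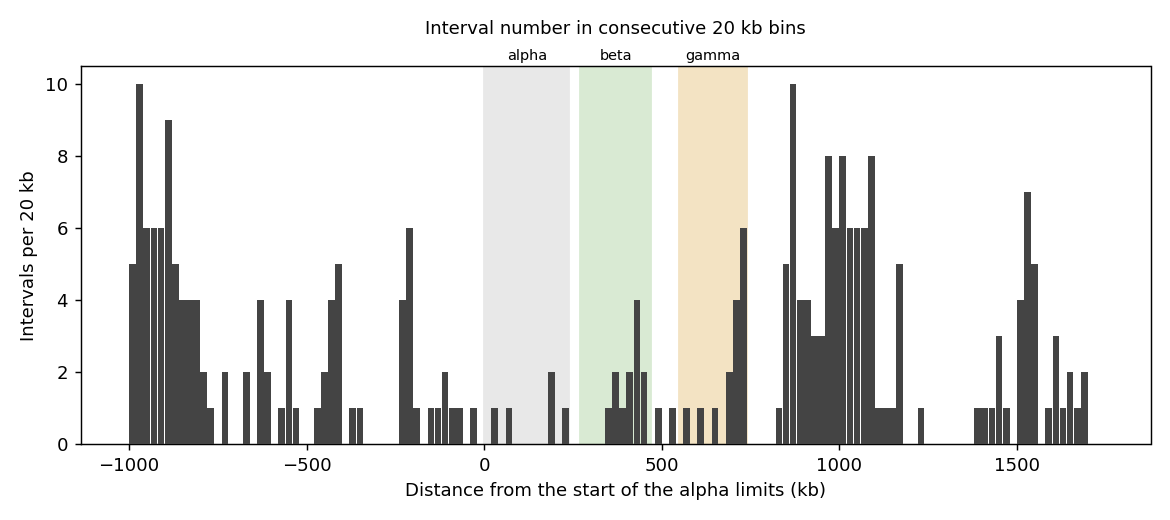
Number of nascent strand intervals (y axis) in consecutive bins of 20 kb, by distance in kb from the start of the alpha limits (x axis); shading marks the alpha, beta and gamma limits. Of the 37 bins of the protocadherin region 19 are empty, and the fullest, at the end of gamma, holds 6, while the fullest bin of either flank holds 10.

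The region was sparse beside its neighbours but held more intervals than the median window of its length in the genome. Chromosomes 1 to 22 and X were tiled with windows of 740 kb, the length of the region, and 3774 windows held at least 1 interval. Their median was 19.5 intervals, with quartiles of 6 and 62, and 61.8% of them held fewer than 34. On chromosome 5 the median of 235 windows was 13, with an upper quartile of 36, and 73.2% held fewer than the region. The peaks of the region were among the weaker ones, with a median fold of 3.81. Of 2460 windows with at least 10 intervals, 4.59% had a lower median fold, and 7.80% had a lower median width than the region's 277 bp. Neither the windows nor the flanks were matched for timing class, and 27 of the 34 intervals of the region were mid late. Cells were sampled at 2 hours of S phase, so timing class and place cannot be told apart in these comparisons.

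Alpha, the array that begins with PCDHA1 and ends with the exons shared by all alpha transcripts, held 5 intervals in 240 kb, or 20.8 per Mb (exact 95% Poisson interval 6.76 to 48.6). Each member is given with its position on chromosome 5. The first, from 140188424 to 140188612, was 189 bp wide, of 3.55-fold enrichment, and was the only early interval of the whole region. The second, from 140229841 to 140230236, was mid early, 396 bp wide and of 3.11-fold enrichment. A stretch of 115.3 kb without an interval followed. The remaining 3 intervals were mid late, and they lay in the last part of the array. The widest of alpha, 896 bp from 140345538 to 140346433, also had its highest fold, 4.77. Only 500 bp separated it from the next, 509 bp wide from 140346934 to 140347442 at 3.50-fold. The last ran over 274 bp from 140381210 to 140381483 at 4.11-fold. Thus the first 185.5 kb of the region held only 2 intervals, both of earlier classes, with −log10 q of 2.65 and 1.91. Where within the 115.3 kb stretch the class changed cannot be read from the lists.

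The longest stretch without an interval in the region joined alpha to beta. It measured 134.6 kb, from 140381483 to 140516046, and included the first 86.0 kb of the beta limits. Among the 7224 distances between neighbouring intervals on chromosome 5, 96.1% were shorter. The numbering of replicate 1 peaks skipped 6 numbers over this stretch and 1 number over the 115.3 kb stretch within alpha. Peaks of replicate 1 that replicate 2 did not share may thus lie in both, and their positions are not in the list.

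Beta, the array of single-exon genes PCDHB1 to PCDHB16, held 12 narrow intervals, with none in the first 86.0 kb of its limits. All lay within 99.7 kb, from 140516046 to 140615706, and over the 200 kb of the array they amounted to 60.0 per Mb (exact 95% Poisson interval 31.0 to 105). The 11 distances between them had a median of 8.46 kb. Of these, 1 measured 458 bp and the other 10 ranged from 5.56 to 16.7 kb. Widths ran from 137 to 448 bp with a median of 238.5 bp, and 2 of 12 exceeded 300 bp. The first interval, from 140516046 to 140516493, was the widest, at 448 bp and 3.46-fold, and was mid late. The next 4 were mid early, which makes beta the array with most mid early members. They began at 140531072 (271 bp, 4.45-fold), 140536958 (183 bp, 3.60-fold), 140553828 (137 bp, 3.25-fold) and 140563478 (166 bp, 3.83-fold). The interval of 137 bp was the narrowest of the region.

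From 140573422 onward every beta interval was mid late. The strongest of the array was the last, from 140615405 to 140615706, 302 bp wide at 6.23-fold. The second strongest ran from 140589834 to 140590105 over 272 bp at 5.19-fold. The other 5 lay between 3.24-fold and 3.78-fold and were 198 to 280 bp wide. One of them, from 140595663 to 140595942, was among the 3 widest of the array at 280 bp, with 3.37-fold. The mid early interval at 140531072 was next in fold after the 2 strongest, and the other 9 of the 12 lay between 3.24-fold and 3.83-fold.

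Between beta and gamma, where the gene order of the RefSeq table (GRCh38.p14) places the non-protocadherin genes SLC25A2 and TAF7, lay 2 mid late intervals. One ran over 224 bp from 140658431 at 3.54-fold, and the other over 578 bp from 140683055 at 3.55-fold.

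Gamma, which begins with PCDHGA1 and ends with the C-type genes PCDHGC3 to PCDHGC5 and the shared last exons, held 15 intervals in 190 kb, or 78.9 per Mb (exact 95% Poisson interval 44.2 to 130). They were unevenly placed, with 3 before and 12 after a stretch of 53.1 kb that held none. This division was chosen after the positions were seen. Without its last 44.6 kb gamma held 20.6 intervals per Mb, against 20.8 in alpha. That value counts the empty stretch of 53.1 kb. Up to the end of the last of the 3, the density was 32.5 per Mb. The densities on both sides of the division thus depend on where it was put. Of the first 3, an interval of 813 bp from 140730594 had 4.46-fold enrichment and was mid late. A second, 191 bp from 140779621, had 3.28-fold and was mid late too. The third, 150 bp from 140802148, had 3.08-fold and was the only mid early interval of gamma. All other 14 were mid late.

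The last 44.6 kb of gamma held 12 intervals, 269 per Mb, and 62.4% of all bases under intervals in the region. In bins of equal size the flanks held fuller stretches, with up to 10 intervals per 20 kb in each, against 6 at the end of gamma. Here lay the strongest and the widest intervals of all 3 arrays. The strongest, from 140871017 to 140871859, was 843 bp wide at 9.20-fold. The widest, from 140890408 to 140894408, spanned 4001 bp at 6.74-fold and was the only interval whose replicate 1 peak was cut into several shared pieces. Next in fold came 457 bp from 140864377 to 140864833 at 6.70-fold. They were followed by 160 bp from 140887628 at 5.08-fold and 1258 bp from 140888147 at 4.90-fold. The second widest covered 1381 bp from 140874228 at 4.05-fold. An interval of 1189 bp from 140884056 at 4.70-fold completed the 4 of at least 1000 bp. The other 5 of these 12 ranged from 173 to 990 bp and from 2.97-fold to 4.21-fold. Median spacing was 1.16 kb, against 8.46 kb in beta. After the last of them, which ended at 140897308, 100.6 kb followed without an interval, and the replicate 1 numbering skipped 0 numbers over that stretch.

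**Figure D2:**
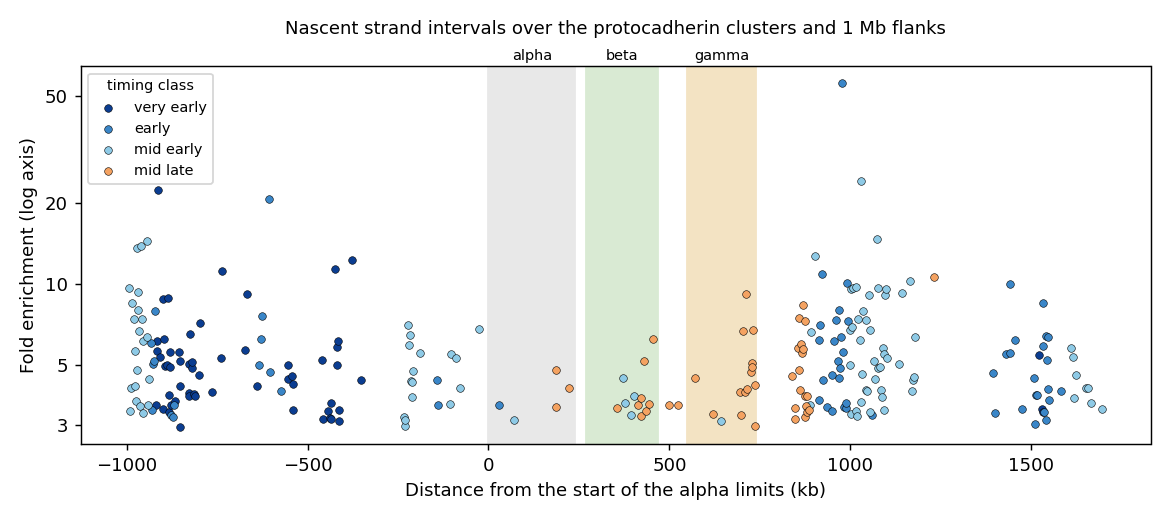
Fold enrichment of the replicate 1 peak of each interval (y axis, log scale) against distance in kb from the start of the alpha limits (x axis); colours give the timing class and shading the alpha, beta and gamma limits. Members of the region stay below 10-fold, with the highest at 9.20 in the last part of gamma, while the flanks reach 22.4 and 55.4.

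Among the arrays, density was lowest in alpha and highest in gamma, and the 4 intervals of at least 1000 bp lay in gamma. Beta was 2.88-fold and gamma 3.79-fold as dense as alpha, but the Poisson intervals of all 3 overlapped. Median width was 396 bp in alpha (range 189 to 896, n = 5), 238.5 bp in beta (rank-based 95% interval of the median 183 to 280, n = 12) and 792 bp in gamma (191 to 1189, n = 15). With 5 intervals alpha allows no such 95% interval. The ranges of all 3 overlapped, as did the intervals of the median in beta and gamma. Widths of at least 1000 bp occurred in 0 of 5 intervals in alpha (exact 95% binomial interval up to 52.2%), 0 of 12 in beta (up to 26.5%) and 4 of 15 in gamma (26.7%, 7.79% to 55.1%), against 26.9% of all intervals in the series. These intervals overlapped, and the share in gamma was near that of the series. Median fold was 3.55 in alpha, 3.58 in beta (3.37 to 4.45) and 4.21 in gamma (3.28 to 5.08), and these intervals overlapped. Intervals covered 0.943% of alpha, 1.47% of beta and 6.87% of gamma.

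The median fold of each array was below that of both flanks in value, but the interval of gamma overlapped those of both flanks, that of beta overlapped the upstream one, and alpha allowed none. The median was 4.93 upstream (rank-based 95% interval 4.39 to 5.19) and 4.90 downstream (4.47 to 5.52), against 3.81 in the region (3.53 to 4.45), so that the region's interval met the upstream one and fell short of the downstream one. In the nearer 0.5 Mb the upstream median was 4.36. A fold of at least 10 was reached by 0 of the 34 intervals, which allows a share of up to 10.3% (exact 95% binomial interval). It was reached by 8 of 110 upstream, 8 of 119 with a fold downstream and 7.17% of all intervals, so at 34 intervals a shortage was not detectable. A −log10 q of at least 5 was reached by 9 of 34 (26.5%, exact 95% binomial interval 12.9% to 44.4%), against 52.7% upstream (43.0% to 62.3%), 52.1% downstream (42.8% to 61.3%) and 52.2% of all. Median width was 277 bp in the region (224 to 509), 656.5 bp upstream (524 to 732) and 701.5 bp downstream (545 to 845). Gamma, at 792 bp, was no narrower than the flanks. In the 9 intervals past this q the median width was 843 bp, against 757 bp upstream and 1030 bp downstream, without 95% intervals. Of these 9, 6 lay in the last 44.6 kb of gamma, 2 in beta and 1 in alpha. The 843 bp thus describes mostly the end of gamma. Shared peak pieces made up 48.7% of the length of the region's intervals, against 55.1% upstream, 55.0% downstream and 57.6% in the series.

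**Figure D3:**
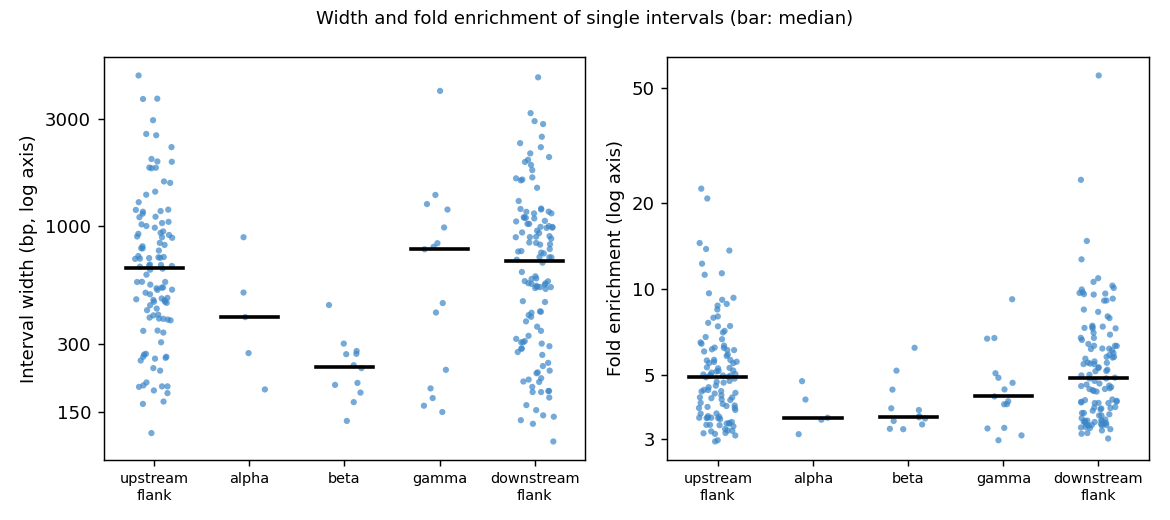
Width in bp (left, log axis) and fold enrichment (right, log axis) of single intervals in the upstream 1 Mb, alpha, beta, gamma and the downstream 1 Mb; each point is an interval and each bar a median. Beta widths stay between 137 and 448 bp, while gamma spans 150 to 4001 bp, and median fold is 3.55 in alpha and 3.58 in beta against 4.93 and 4.90 in the flanks.

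Each flank had its strongest intervals at some distance from the arrays. Upstream these were a very early interval from 139246797 to 139248623 at 22.4-fold, an early one from 139553018 to 139553423 at 20.7-fold and a mid early one from 139214438 to 139214972 at 14.4-fold. Downstream they were an early interval from 141135746 to 141138682 at 55.4-fold and mid early ones from 141190284 to 141192261 at 24.0-fold and from 141231357 to 141234206 at 14.7-fold. The nearest outside neighbours of the region lay within the range of its members in width and fold. The last interval before its start, from 140132904 to 140133297, was mid early, 394 bp wide and of 6.79-fold. The first after its end, from 140997903 to 140998462, was mid late, 560 bp wide and of 4.54-fold.

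In timing, the region was mostly mid late, between 1 Mb flanks that were mostly of earlier classes. Of the 34 intervals 27 were mid late (79.4%, exact 95% binomial interval 62.1% to 91.3%), against 22.3% of all intervals, 0 of 110 upstream and 19 of 120 downstream. A further 6 were mid early, 1 was early, and 0 were very early, late or very late. The very early, early and mid early classes together made up 20.6% in the region (8.70% to 37.9%), 100% upstream (96.7% to 100%) and 84.2% downstream (76.4% to 90.2%), against 66.3% on chromosome 5. Neither flank's interval overlapped that of the region. Among windows of 740 kb with at least 10 intervals, 22.7% of 2460 over the genome and 16.5% of 133 on chromosome 5 had a lower share of these 3 classes than the region, so such timing was not rare. Upstream, 56 of 110 intervals were very early. Downstream only 3 were, from 141681112 (229 bp, 5.46-fold), 141690401 (205 bp, 3.43-fold) and 141692265 (414 bp, 3.35-fold). Within the arrays the earlier share was 2 of 5 in alpha, 4 of 12 in beta and 1 of 15 in gamma, and the exact binomial intervals of all 3 overlapped (5.27% to 85.3%, 9.92% to 65.1% and 0.169% to 31.9%). The binomial intervals treat neighbouring intervals as independent, but neighbours mostly shared a class. It changed at only 8.26% of neighbouring pairs upstream and 8.40% downstream. The binomial intervals are therefore too narrow, and their overlap or lack of it is a description.

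**Figure D4:**
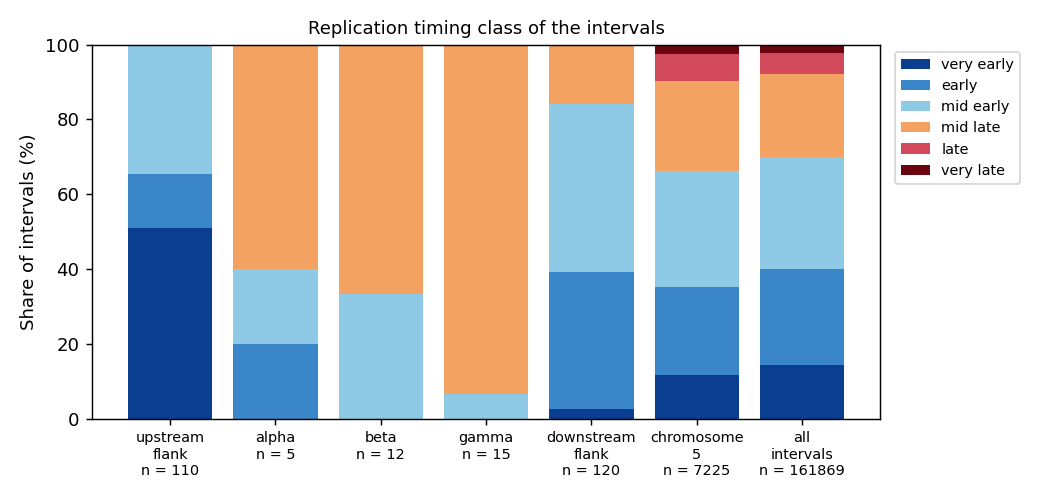
Share of intervals (y axis, %) in each replication timing class for the upstream 1 Mb, alpha, beta, gamma, the downstream 1 Mb, chromosome 5 and the whole series, with the number of intervals under each bar. Mid late intervals make up 60.0% of alpha, 66.7% of beta and 93.3% of gamma, against 0% upstream and 15.8% downstream.

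The mid late intervals did not begin and end at the limits of the arrays. The first mid late interval began 185.5 kb inside the alpha limits. At the other end, an uninterrupted run of 30 mid late intervals reached from 140855396 to 141046396, over 191 kb, with 12 intervals in gamma and 18 in the downstream flank, and it ended 146 kb past the gamma limit. Beyond it the class moved to mid early and then early. Within the region the class changed 6 times over 33 neighbouring pairs (18.2%), from early to mid early, to mid late, and then in and out of mid early at beta and at 140802148. All 6 changes were between adjacent classes, as were 962 of 1003 on chromosome 5 and 17869 of 18571 on chromosomes 1 to 22 and X. Class changed at 8.26% of pairs upstream, 8.40% downstream, 13.9% on chromosome 5 and 11.5% on chromosomes 1 to 22 and X. Neighbours lay further apart in the region, at a median of 8.45 kb, against 1.58 kb upstream and 2.14 kb downstream. With 33 pairs, a difference in these shares was not tested. The 6 mid early members were narrow, from 137 to 396 bp with a median of 174.5 bp, and had folds of 3.08 to 4.45. The 27 mid late members ranged from 160 to 4001 bp with a median of 415 bp, and from 2.97-fold to 9.20-fold. All 9 members whose −log10 q reached 5 were mid late, but so were 79.4% of all 34 members. Of these 9, 6 lay in the last part of gamma, where all 12 intervals were mid late. In the flanks, the very early, early and mid early classes together made up 100% upstream and 87.1% downstream of intervals past this q. Whether peak strength and timing class were linked was not tested.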

How the data were processed

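Per the submitters' processing notes, reads were processed with BWA and MACS2 on hg19; versions, parameters, any control and how reads were placed among similar exons: not given in the sources used here. Deposited by the authors were 1 list of shared broad peaks, with a fold enrichment ratio, −log10 p and −log10 q per replicate 1 peak and a score that was not used, and 6 lists of intervals by replication timing class, whose deposited score is a constant 1000. The rule behind the classes is unstated in the labels.

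A name on 2 lines was counted once, as the span of both. Each interval took the fold of the replicate 1 peak sharing most bases, at least 1 bp. Positions are 1-based. Density is intervals per Mb by midpoint. Shares have exact binomial, densities exact Poisson and medians rank-based binomial 95% intervals, which cover counting error only. No test was made, since both libraries form 1 set. The steps were tested on simulated intervals. The software was matplotlib 3.10.9, scipy 1.17.1, numpy 2.4.6 and pandas 2.3.3 under Python 3.11.15.

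Intervals were named by rule: in each array the 5 of highest fold and the 3 widest, in each flank the 3 of highest fold, and every interval of a class held 3 times or less. All other members were added. The members, limits and lists were chosen with earlier results of these data known, and the 1000 bp width and the division of gamma after their values were seen. Alternative settings were flanks of 0.5 Mb, any overlap, every line counted, the highest overlapping fold, merging within 100 bp, widths from 200 bp and a −log10 q from 5.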

Additional observations from a re-analysis of the deposited data

How the results depend on the processing

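Density, share of the 3 earlier classes, median width and median fold, each for the whole region, alpha, beta, gamma and both flanks, gave 134 values under the 7 alternatives. Of these, 111 stayed within 1.5 times the reported density or within the reported 95% interval (for the medians of alpha, its range). Merging within 100 bp, every line counted, any overlap and the highest overlapping fold moved none of their values. Merging could join nothing, since the smallest distance between neighbours was 359 bp in the region, 376 bp upstream and 333 bp downstream. Any overlap kept the same counts, and only 1 interval of the region overlapped more than 1 peak, so these settings tested little. Every line counted raised the upstream density from 110 to 160 per Mb, beyond its Poisson interval (90.4 to 133) but within 1.5 times. With a −log10 q of at least 5, which keeps only strong peaks by construction, the density was 12.2 per Mb in the region, 4.17 in alpha, 10.0 in beta, 31.6 in gamma, 58.0 upstream and 62.0 downstream. The earlier share was then 0% in the region (n = 9), alpha (n = 1), beta (n = 2) and gamma (n = 6). Values of alpha and beta at this setting therefore rest on 1 and 2 intervals. Median width was 843 bp in the region, 287 bp in beta, 757 bp upstream and 1030 bp downstream. Median fold was 5.19 in the region, 5.71 in beta, 5.89 in gamma, 6.14 upstream and 6.69 downstream. With widths of at least 200 bp the earlier share was 8.0% in the region and 0% in gamma. Within 0.5 Mb the upstream density was 64.0 per Mb and its median fold 4.36.

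No value could be computed without replicate 1 or replicate 2, since the lists hold both libraries as 1 set, and limits from an hg19 annotation were not run. No paired analysis was possible because the study has 1 group. With 5, 12 and 15 intervals, the arrays' intervals are wide, and read depth is unknown.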
